A study of Mus musculus with 220 samples.

Results

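The genes described here are the xenobiotic receptors CAR (constitutive androstane receptor, gene Nr1i3) and PXR (pregnane X receptor, gene Nr1i2), the cytochrome P450 genes Cyp2b10, Cyp2b9 and Cyp2b13, and Por, which encodes the reductase that passes electrons to P450 enzymes. These 6 genes were chosen by name, and every probe set of the array that carried the symbol of exactly 1 of them was taken. They came to 5 measured genes with 8 probe sets, out of 17097 genes and 45037 probe sets. No probe set carried the symbol Por in the annotation used, and Por was not analysed here. Cyp2b10 had 3 probe sets, Nr1i2 had 2 and the others had 1 each, and where a gene had several, the brightest on average stood for it.

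The data came from 220 livers of female F1 mice, each read on 1 Affymetrix HT MG-430 PM array. The mother was of 1 of 96 inbred or recombinant inbred strains, and the father was a C57BL/6J mouse with human APOE-Leiden and CETP transgenes, which make mouse plasma lipids more like those of humans. All mice were 24 weeks old and had eaten chow for 8 weeks and then a Western diet for 16 weeks, so that the transgenes, the diet, the sex and the paternal C57BL/6J chromosomes were shared by every group. Of the mothers' strains, 34 were BXD with 83 daughters, 21 were AXB/BXA with 47, 8 were CXB with 17, 4 were BXH with 8, and 29 were classical inbred strains with 65. Among the BXD strains was BXD24/TyJ-Cep290<rd16>/J, with 3 daughters, whose label names the rd16 allele of Cep290. Recombinant inbred strains descend from crosses of C57BL/6J with DBA/2J (BXD), A/J (AXB/BXA), BALB/cJ (CXB) or C3H/HeJ (BXH). A strain was represented by 1 mouse in 9 cases, by 2 in 51, by 3 in 35 and by 4 in 1. Litter, cage and collection day are not given in the labels, and p-values between strains include whatever mice of a strain shared in these. Fathers were heterozygous for APOE-Leiden, daughters with both transgenes were kept, and mice of C57BL/6J mothers are not hybrids. There was no mouse without transgenes or on chow alone, and a maternal allele was always measured beside a paternal C57BL/6J allele.

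Hepatocyte markers were bright: the 8 of 9 markers measured had means over all mice of 10.7 to 13.5 on the log2 scale, against a median of 3.46 over all probe sets. Of 7 markers of intestine and pancreas, 2 had a mean above that median. Values are log2 signals, on which a difference of 1 is 2-fold, and levels of different genes or probe sets are not compared, since each probe set has its own brightness. In bulk liver, fewer cells of a type and less RNA per cell cannot be told apart.

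CAR and PXR are nuclear receptors of the hepatocyte that sense drugs, bile acids and steroids. Both pair with the retinoid X receptor RXR and bind DNA at repeats of a short half-site related to AGGTCA, and they share many target genes for oxidation, conjugation and export of foreign compounds. CAR is held in the cytoplasm until an activator such as phenobarbital releases it, and Cyp2b10, which carries a distal phenobarbital-responsive enhancer, is its best known target in mouse liver. PXR acts most strongly on the Cyp3a genes. Cyp2b9 and Cyp2b13 are Cyp2b genes that are higher in female than in male mouse liver, a pattern set by growth hormone.

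The start-proximal sequences of the Cyp2b genes are shown because the values of these genes moved together across strains. They are the 250 bases before the transcript start that the RefSeq promoter table uses (GRCm38.p6, plus strand). For Cyp2b13 and Cyp2b9 the RefSeq gene span begins upstream of that start, at 26061388 and 26173350, so that their windows lie partly inside the annotated gene. Both strands were searched for the nuclear receptor half-site AGGTCA, its variant form AGTTCA, the STAT core written TTCNNNGAA, the D-box written TTATGNAA, the clock E-box CACGTG, and the TATA box core TATAAA. Capitals mark the matches.
Cyp2b10, chr7:25897408-25897657: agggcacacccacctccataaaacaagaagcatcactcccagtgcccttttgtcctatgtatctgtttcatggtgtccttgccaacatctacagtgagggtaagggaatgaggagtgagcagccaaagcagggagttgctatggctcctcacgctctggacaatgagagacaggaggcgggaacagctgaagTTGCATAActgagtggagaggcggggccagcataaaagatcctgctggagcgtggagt
Cyp2b13, chr7:26061245-26061494: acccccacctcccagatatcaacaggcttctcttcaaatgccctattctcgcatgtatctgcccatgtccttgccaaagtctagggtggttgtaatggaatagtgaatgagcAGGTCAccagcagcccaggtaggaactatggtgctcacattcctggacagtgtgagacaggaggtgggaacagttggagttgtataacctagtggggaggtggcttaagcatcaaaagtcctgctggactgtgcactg
Cyp2b9, chr7:26173159-26173408: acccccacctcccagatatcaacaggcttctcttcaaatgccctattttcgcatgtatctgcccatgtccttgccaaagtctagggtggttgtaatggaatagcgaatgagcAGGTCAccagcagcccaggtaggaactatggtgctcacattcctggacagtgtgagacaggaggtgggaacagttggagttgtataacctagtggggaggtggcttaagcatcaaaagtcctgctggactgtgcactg

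The windows of Cyp2b9 and Cyp2b13 were identical at 248 of 250 bases. The 2 differences were T203C and C147T, with the Cyp2b9 base first and positions counted upstream from the start. A global alignment of the Cyp2b10 window with that of Cyp2b9 had 186 identical bases. The half-site AGGTCA stood once in the Cyp2b9 window and once in the Cyp2b13 window, and 14% of 32851 upstream windows of this length held it on either strand. The Cyp2b10 window held 1 match to the D-box, the site of factors such as DBP, which was found in 3.07% of all windows. These matches describe letters only. The 25-base probes of the array cannot separate near-identical transcripts, and values of Cyp2b9, Cyp2b10 and Cyp2b13 may share signal. The 2 brighter Cyp2b10 probe sets carry the suffix that the maker gives to probes matching several transcripts.

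All 5 genes differed between maternal strains. The F-test of limma, on 211 mice from 87 strains that had at least 2, called 8 of 8 probe sets at an adjusted p of 0.05. Over the whole array 47.9% of probe sets passed, and 81.4% of those with a mean above the median, so that a pass in itself did not set the 5 genes apart. The share of variance that lay between strains was 0.759 for Cyp2b13 (adjusted p = 3.89e-26), 0.719 for Cyp2b9 (2.03e-22), 0.628 for Nr1i3 (2.97e-16), 0.613 for Cyp2b10 (1.35e-15) and 0.544 for Nr1i2 (6.43e-12), all by limma. The median share over all genes was 0.251.

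**Figure D1:**
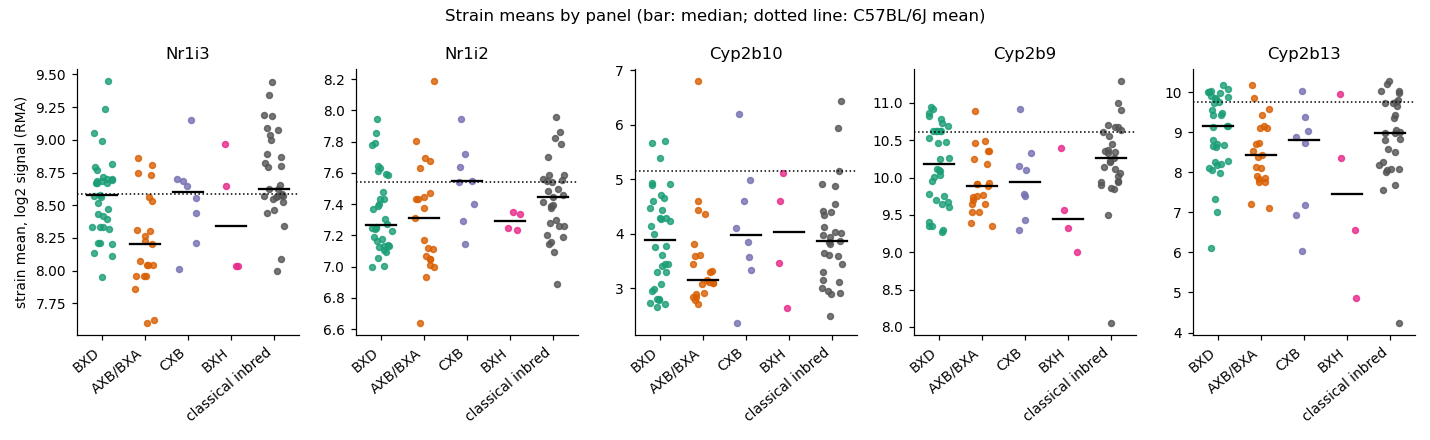
Strain means of the 5 genes in log2 signal (vertical axis, a scale of its own for each gene) by panel, with 1 point per maternal strain, the panel median as a bar and the C57BL/6J mean as a dotted line. KK/HlJ lies at 8.05 for Cyp2b9 and at 4.24 for Cyp2b13, below every other strain, and the AXB/BXA strains are placed low for Nr1i3.

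Nr1i3, the CAR receptor, ranged over 1.85 log2 units between strain means. The lowest strain mean was 7.60, the median 8.57 and the highest 9.45, and the pooled SD of mice within strains was 0.27. In the order of the 96 strains, no gap between neighbours was larger than that SD, and the median gap was 0.0094. So many means over this range leave small gaps, so that the order cannot show whether the levels were continuous or grouped. The 3 highest strains were BXD50/RwwJ (9.43 and 9.47), SWR/J (9.31 and 9.57) and BUB/BnJ (9.12, 9.17 and 9.74). The 3 lowest were AXB19/PgnJ (7.62 and 7.58), AXB15/PgnJ (7.70, 7.35 and 7.82) and AXB19b/PgnJ (8.17, 7.64 and 7.76). Each mouse of the 3 highest strains lay above each mouse of the 3 lowest, but these strains were picked by the same values, so that this is not a test.

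Each strain was also set against the mean of the other 95 by limma, with p-values adjusted over all probe sets and strains together. Across the array 1.82% of such contrasts were called higher and 1.67% lower, and 3.02% and 3.22% among probe sets with a mean above the median. For Nr1i3, 9 of 96 strains were higher and 6 lower. AXB19/PgnJ was lower, with a difference of -0.95 (SE 0.19, adjusted p = 0.000247), and AXB15/PgnJ with -0.92 (SE 0.15, adjusted p = 6.83e-06), by limma. BXD50/RwwJ was higher by 0.93 (SE 0.19, adjusted p = 0.000355), SWR/J by 0.91 (SE 0.19, adjusted p = 0.000444) and BUB/BnJ by 0.81 (SE 0.15, adjusted p = 9.82e-05), all by limma. Without 1 mouse, SWR/J missed the threshold (0.78 without its second mouse, adjusted p = 0.0798), and the other 4 calls held whichever mouse was left out. The sister substrains AXB19/PgnJ, AXB19b/PgnJ and AXB19a/PgnJ had means of 7.60, 7.86 and 8.86. The AXB19a/PgnJ mice, at 9.18 and 8.54, were above all 5 mice of the other 2 substrains, a set picked after the values were seen and not tested.

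Nr1i2, the PXR receptor, had the smallest spread of the 5 genes. Its strain means ran from 6.64 through a median of 7.38 to 8.19, and the within-strain SD was 0.22. AXB2/PgnJ stood highest, with mice at 7.76, 8.38 and 8.43, followed by SWR/J (7.70 and 8.22) and CXB3/ByJ (7.70 and 8.19). AXB10/PgnJ stood lowest (6.71 and 6.57), then AKR/J (6.95 and 6.83) and AXB5/PgnJ, a strain with 1 mouse. Against the mean of the other strains, 8 strains were higher and 2 lower by limma. AXB2/PgnJ was higher by 0.82 (SE 0.12, adjusted p = 7.31e-07) and kept its call without any 1 of its mice. AXB10/PgnJ was lower (difference -0.75, SE 0.15, limma adjusted p = 0.000379), a call that just missed the threshold without its second mouse (limma adjusted p = 0.0519). SWR/J (0.58) and CXB3/ByJ (0.57) were each called on the strength of 1 high mouse: without it they were at 0.32 and 0.32, with limma adjusted p of 0.556 and 0.552. BXD50/RwwJ, at 0.57, also lost its call without either mouse. The second probe set of Nr1i2 followed the first, with r = 0.93 over strain means, and its share of variance between strains was 0.554.

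Cyp2b10, the CAR target with the phenobarbital-responsive enhancer, was dim in many strains and raised in a few. Its strain means ran from 2.37 through a median of 3.70 to 6.81, and 41 of 96 strain means were below the median probe set of the array, where array values say little about order. The mice of AXB2/PgnJ had 6.44, 6.76 and 7.24, those of NOD/ShiLtJ 6.32 and 6.54, and those of CXB13/HiAJ 5.66 and 6.74. KK/HlJ (2.66 and 2.33), BXH22/KccJ (2.46 and 2.83) and CXB11/HiAJ, with 1 mouse, were among the strains below that median, whose order is not read. By limma 8 of 96 strains were higher and 0 lower, and 35 strains had an unadjusted p under 0.05 in either direction. AXB2/PgnJ was higher by 2.98 (SE 0.38, adjusted p = 1.73e-09) and NOD/ShiLtJ by 2.60 (SE 0.46, adjusted p = 3.37e-05), and both calls held without any 1 mouse. CXB13/HiAJ (2.36), SWR/J (2.11) and BXD1/TyJ (1.85) were called as well but missed the threshold without 1 mouse, at 1.82, 1.61 and 1.37 with limma adjusted p of 0.108, 0.188 and 0.0747. The within-strain SD of 0.66 was the largest of the 5 genes. The mice of BXD1/TyJ, at 6.66, 5.84 and 4.58, show that spread. The 3 probe sets of Cyp2b10 were closely related, with r from 0.97 to 0.98 and rho from 0.96 to 0.97 over strain means, the dim strains included.

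Cyp2b9 was bright in every strain, with strain means from 8.05 through a median of 10.11 to 11.30 and a within-strain SD of 0.31. KK/HlJ stood alone at the bottom, with mice at 8.29 and 7.82, and the next strain, BXH22/KccJ (8.97 and 9.04), was 0.95 higher. That was the only 1 of the 95 gaps between neighbouring strains that exceeded the within-strain SD. SWR/J stood at the top with 11.28 and 11.31, followed by NOD/ShiLtJ (11.11 and 10.90) and BXD50/RwwJ (10.85 and 11.05). By limma 14 strains were higher than the mean of the others and 10 lower. KK/HlJ was lower (difference -2.07, SE 0.22, adjusted p = 5.36e-13), as was BXH22/KccJ (difference -1.11, SE 0.22, adjusted p = 0.000222), and SWR/J was higher by 1.21 (SE 0.22, adjusted p = 4.33e-05). These 3 calls held without either mouse of the strain. NOD/ShiLtJ, higher by 0.91, was at 0.81 without its first mouse (limma adjusted p = 0.149), and BXD50/RwwJ, higher by 0.86, lost its call without either mouse.

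Cyp2b13 varied most, over 6.04 log2 units between strain means. The lowest strain mean was 4.24, the median 8.81 and the highest 10.28, and the within-strain SD was 0.62. KK/HlJ (4.44 and 4.04) and BXH22/KccJ (5.31 and 4.40) were again at the bottom. CXB8/HiAJ (5.61, 5.79 and 6.68) came next, and the gap of 1.17 between BXH22/KccJ and CXB8/HiAJ was the only gap over the within-strain SD. NOD/ShiLtJ (10.13 and 10.44), DBA/2J (10.20, 9.72 and 10.71) and BXD14/TyJ (10.15, 10.38 and 10.03) were at the top. By limma 9 strains were higher than the mean of the others and 11 lower. KK/HlJ was lower with a difference of -4.52 (SE 0.43, adjusted p = 2.41e-15), BXH22/KccJ with -3.91 (SE 0.43, adjusted p = 4.64e-12), CXB8/HiAJ with -2.72 (SE 0.35, adjusted p = 3.65e-09) and BXD61/RwwJ, whose mice had 5.88 and 6.34, with -2.63 (SE 0.43, adjusted p = 4.66e-06), and these 4 calls held without any 1 mouse. BXH8/TyJ, lower (difference -2.18) with mice at 7.62 and 5.50, missed the threshold without its second mouse (difference -1.12, limma adjusted p = 0.395). AXB15/PgnJ, lower (difference -1.53), rested on 1 mouse at 5.41 beside 8.18 and 8.01, and without it the difference was -0.64 (limma adjusted p = 0.528).

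Calls in several genes fell on the same strains. Over the 5 genes there were 77 calls, 48 higher and 29 lower, in 41 of 96 strains, and 9 strains were called in 3 or more genes. AXB2/PgnJ, BXD50/RwwJ, NOD/ShiLtJ and SWR/J were each higher in 4 of the 5 genes, and AXB15/PgnJ was lower in 3. Calls ran in both directions in 1 strain, SJL/J, which was higher for Cyp2b9 and lower for Nr1i3. AXB2/PgnJ had the highest strain mean of Nr1i2 and Cyp2b10, while its Nr1i3 mice, at 8.81, 8.54 and 8.26, lay around the median strain. KK/HlJ and BXH22/KccJ were low for Cyp2b9 and Cyp2b13 with no call in Nr1i3 or Nr1i2. The Nr1i3 values were 8.90 and 8.24 in KK/HlJ, around the median strain of 8.57. In BXH22/KccJ they were 7.84 and 8.23, both below it. These counts describe correlated genes and are not separate pieces of evidence. Of 46 such calls in 18 named strains, 15 held without each mouse of the strain in turn.

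**Figure D2:**
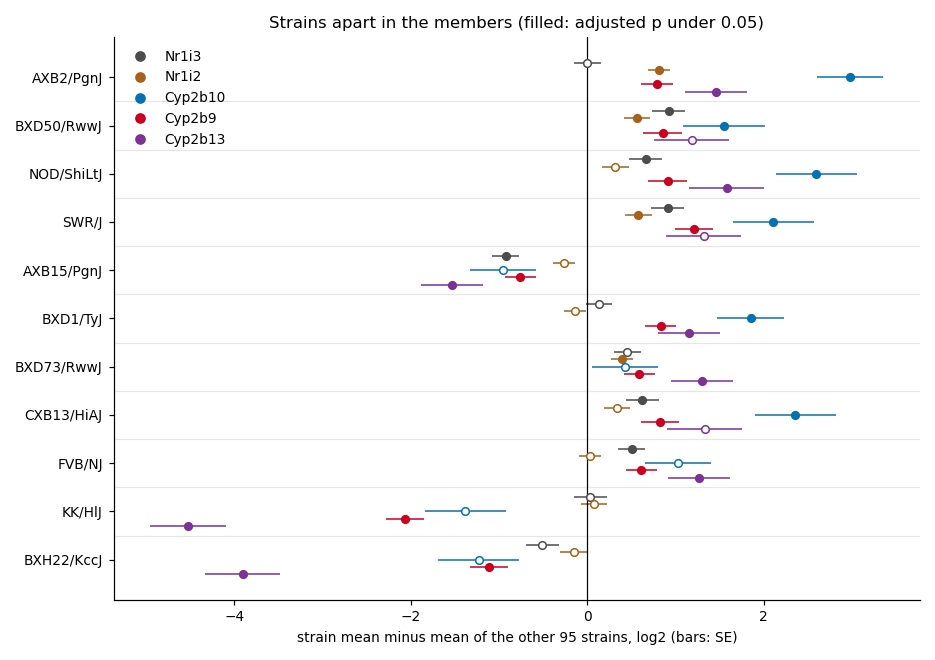
Difference of a strain mean from the mean of the other 95 strains in log2 units (horizontal axis, bars are SE) for the 9 strains called in 3 or more genes and for KK/HlJ and BXH22/KccJ, with filled points for an adjusted p under 0.05 by limma. Cyp2b13 lies at -4.52 in KK/HlJ and at -3.91 in BXH22/KccJ, while the points of Nr1i3 and Nr1i2 are open there.

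Other female-biased genes of mouse liver were low in the same 2 strains. In KK/HlJ 6 of 12 measured genes of the female-biased list were lower and 0 higher, where 1.87% of all genes were lower and 2.57% higher by the same limma contrast (3.0% and 3.78% of genes above the median probe set). They included Sult2a2, a hydroxysteroid sulfotransferase (difference -3.18), Slc22a26, an organic anion transporter (-2.64), the thioesterase gene Acot3 (-2.21) and Cyp17a1, a steroid hydroxylase (-1.75). In BXH22/KccJ 3 of the 12 were lower, Sult2a2 (-3.65), Cyp17a1 (-2.30) and Slc22a26 (-1.87), and 1 was higher, against 1.36% and 2.46% of all genes. Of the 10 male-biased genes measured, 1 was higher in KK/HlJ and 0 were called in BXH22/KccJ. The list mean of the female-biased genes over strains ran from 6.04 in KK/HlJ to 8.74 in SWR/J. Of the 7 cholangiocyte markers measured, 0 were called in KK/HlJ and 6 were higher in BXH22/KccJ, with a median difference of 0.56 in KK/HlJ and 1.23 in BXH22/KccJ. In BXH22/KccJ 5 of 9 endothelial markers (median difference -0.64), 4 of 8 periportal hepatocyte genes, 4 of 15 clock output genes and 3 of 12 macrophage and Kupffer cell markers were lower, 0 of these were higher, and 2 of 10 stellate cell markers were higher. In KK/HlJ the calls in these lists were 2 periportal genes and 1 macrophage marker, all lower. Of 18 measured conjugation enzymes among CAR and PXR targets, 7 were higher and 0 lower in KK/HlJ, and 0 and 1 in BXH22/KccJ. Of 16 target oxidases, 2 were higher and 3 lower in KK/HlJ, and 0 and 1 in BXH22/KccJ. The part of these genes and cell markers in the low Cyp2b values was not tested.

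In the strains with high Cyp2b values the CAR and PXR target lists did not move as a block. Of 16 measured target oxidases, 6 were higher and 3 lower in BXD50/RwwJ (all genes 5.25% and 7.91%), 5 and 2 in SWR/J (6.22% and 9.13%), 3 and 1 in AXB2/PgnJ (6.81% and 11.6%), and 2 and 0 in NOD/ShiLtJ (5.49% and 7.72%). Cyp2c29, a CAR-responsive P450, was higher in all 4, by 0.48 in BXD50/RwwJ, 0.61 in SWR/J, 0.49 in AXB2/PgnJ and 0.49 in NOD/ShiLtJ. Ces2a, a carboxylesterase, was higher by 1.08 in BXD50/RwwJ, 0.89 in AXB2/PgnJ and 1.03 in NOD/ShiLtJ. Of 18 conjugation enzymes, 3 were higher and 8 lower in BXD50/RwwJ, 4 and 6 in SWR/J, 5 and 4 in AXB2/PgnJ, and 3 and 1 in NOD/ShiLtJ. The glutathione transferases Gsta2 (difference -3.20) and Gstm3 (difference -2.14) were among the lower ones in BXD50/RwwJ. Cholangiocyte markers were lower in these strains, 6 of 7 in AXB2/PgnJ, 4 in BXD50/RwwJ, 4 in NOD/ShiLtJ and 2 in SWR/J, and 6, 6, 5 and 7 of 10 stellate cell markers were lower in the same order of strains. Of 12 macrophage and Kupffer cell markers, 6, 6, 4 and 5 were lower and 0, 2, 0 and 2 higher in that order. Of 9 endothelial markers 0 were lower, and 6 were higher in SWR/J (median difference 0.69), 1 in NOD/ShiLtJ and 0 in the other 2. In AXB2/PgnJ 6 of 15 clock output genes were higher and 1 lower, with Ciart higher by 2.23 and Per1 by 1.41. The time of day of each collection is not given, and the part of these markers in the high values was not tested.

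Among genes above the median probe set the shares were larger, 3.34% to 10.9% higher and 2.17% to 18.4% lower over the 11 strains whose lists are described. The remaining strains with 3 or more calls differed in these lists. Of the 12 female-biased genes, 6 were higher and 0 lower in FVB/NJ (all genes 3.59% and 6.30%), 5 and 1 in BXD1/TyJ (4.78% and 7.14%), 3 and 2 in BXD73/RwwJ (3.99% and 4.52%), and 1 and 0 in CXB13/HiAJ (3.63% and 3.19%). In AXB15/PgnJ, where Nr1i3, Cyp2b9 and Cyp2b13 were lower, 0 were higher and 3 lower (7.28% and 4.87%), 3 of 16 target oxidases were lower, and 6 of 7 cholangiocyte markers and 3 of 10 stellate cell markers were higher. Of the 18 conjugation enzymes, 8 were lower and 0 higher in BXD1/TyJ and again in BXD73/RwwJ.

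The maternal progenitor strains were set against C57BL/6J, whose 2 mice serve all 4 contrasts. Cyp2b10 was lower in A/J mothers' daughters, at 3.40, 2.92 and 3.13, against 5.58 and 4.72 in C57BL/6J (difference -2.0, SE 0.59, limma adjusted p = 0.0189). It was also lower in C3H/HeJ, at 3.31 and 2.93 (difference -2.02, SE 0.65, limma adjusted p = 0.0414). Cyp2b13 was lower in BALB/cJ, at 7.74, 7.48 and 7.48, against 9.91 and 9.61 in C57BL/6J (difference -2.19, SE 0.55, limma adjusted p = 0.00429). In C3H/HeJ it was at 7.98 and 7.36 (difference -2.09, SE 0.60, limma adjusted p = 0.0190). Every A/J and C3H/HeJ value of Cyp2b10 lay under the array's median probe set of 3.46, so that the size of these 2 differences is limited by the low end of the scale. In the 4 comparisons the mice of the strain did not overlap those of C57BL/6J, as can readily happen with 2 or 3 mice a side. The brighter Nr1i2 probe set, which was not called, did not overlap in any of the 4 strains either. The share of all probe sets without overlap was not counted. Over all probe sets, in either direction, 7.63% were called in A/J, 1.86% in DBA/2J, 6.94% in BALB/cJ and 5.87% in C3H/HeJ.

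These calls depended on single mice. Without the first C57BL/6J mouse all 4 were lost, the Cyp2b10 differences becoming -1.57 in A/J (limma adjusted p = 0.379) and -1.59 in C3H/HeJ (0.475), and the Cyp2b13 differences -2.04 in BALB/cJ (0.116) and -1.94 in C3H/HeJ (0.225). Without the second, those of C3H/HeJ were lost (Cyp2b10 -2.45, limma adjusted p = 0.0543; Cyp2b13 -2.25, 0.0603). Without the second A/J mouse, Cyp2b10 was at -1.88 (limma adjusted p = 0.0709), and without either C3H/HeJ mouse its 2 calls were lost (over every mouse left out, Cyp2b10 ran from -2.45 to -1.59 and Cyp2b13 from -2.40 to -1.79). DBA/2J was called for none of the genes: Cyp2b10 was at 5.23, 3.56 and 5.96 in DBA/2J (difference -0.23, 95% interval -1.40 to 0.94) and Cyp2b13 at 10.20, 9.72 and 10.71 (difference 0.45, 95% interval -0.64 to 1.54). For Cyp2b9 the differences of A/J, BALB/cJ and C3H/HeJ from C57BL/6J were -0.75, -0.59 and -0.71 and missed the threshold (limma adjusted p = 0.0834, 0.226 and 0.177). The receptors were not called in any of the 4 contrasts. The differences of Nr1i3 ran from -0.25 to 0.21 and those of Nr1i2 from -0.40 to -0.24. The second Nr1i2 probe set, also not called, ran from -0.28 to 0.17, with the opposite sign to the first in DBA/2J.

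**Figure D3:**
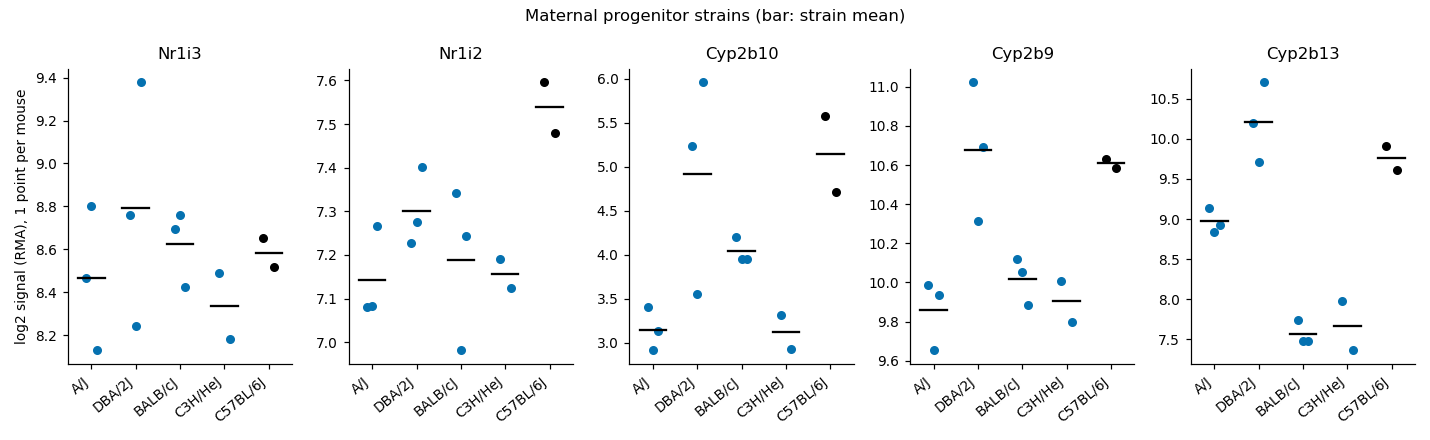
Log2 signal of each mouse (vertical axis, a scale of its own for each gene) for the 4 other progenitor strains and C57BL/6J as mothers, with the strain mean as a bar. The Cyp2b10 points of A/J (2.92 to 3.40) and C3H/HeJ (2.93 and 3.31) lie below both C57BL/6J points (4.72 and 5.58), and the DBA/2J points span 3.56 to 5.96.

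Strains within the larger panels differed among themselves. All 8 probe sets were called by limma's F-test among the BXD strains, among the AXB/BXA strains and among the classical inbred strains, where 32.5%, 21.7% and 35.4% of all probe sets were. Only Cyp2b13 was called among the CXB strains (adjusted p = 0.00572, limma) and the BXH strains (adjusted p = 0.0447, limma), where 1.71% and 1.15% of probe sets were. At an unadjusted p under 0.05 the other genes that passed were Cyp2b9, Cyp2b10 and Nr1i3 in CXB, and Cyp2b9 and Cyp2b10 in BXH. The Cyp2b13 means of the 4 BXH strains ran from 4.85 in BXH22/KccJ to 9.96 in BXH6/TyJ. In the same panel BXH22/KccJ was lowest for Cyp2b13 and below the median probe set for Cyp2b10. Of the BXH19/TyJ mice the one at 6.17 for Cyp2b10 had 9.61 for Cyp2b13 and the one at 3.02 had 7.10. In the other 2 strains the genes ran apart: BXH8/TyJ had 5.50 and 4.73 for Cyp2b10 with 7.62 and 5.50 for Cyp2b13, and BXH6/TyJ had 3.28 and 3.64 for Cyp2b10 with 9.98 and 9.94 for Cyp2b13. Some of these calls were lost when all mice of 1 replicate number were left out, which takes no mouse from strains lacking that number. The largest adjusted p of Cyp2b10 in the classical strains was then 0.203 by limma, and Cyp2b9 and Cyp2b13 kept their calls in the 3 larger panels. For the receptors, the largest adjusted p of Nr1i3 was 0.0652 in BXD, 0.0545 in AXB/BXA and 0.261 in the classical strains, and that of Nr1i2 was 0.0937, 0.0518 and 0.0927.

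Strain means of the recombinant inbred panels were also set beside those of their progenitors. For Cyp2b10, 29 of 34 BXD strain means were below both DBA/2J (4.92) and C57BL/6J (5.15), 2 were between and 3 above. For Cyp2b13, 24 of 34 were below both DBA/2J (10.21) and C57BL/6J (9.76), and for Cyp2b9, 22 of 34 were below both. In AXB/BXA 15 of 21 strains were below both A/J (8.47) and C57BL/6J (8.59) for Nr1i3. In each of these cases the progenitor means lay closer together than the within-strain SD, so that the number between them says little. The numbers below and above both depend on where the few progenitor mice lay. With progenitor means farther apart, for Nr1i2 4 of 4 BXH strains were between C3H/HeJ (7.16) and C57BL/6J (7.54), and for Cyp2b13 4 of 8 CXB strains were between BALB/cJ (7.57) and C57BL/6J (9.76). These are counts of means without a test, and the progenitor means rest on 2 or 3 mice each.

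As a whole, the panels differed from the classical inbred strains in 1 gene. Nr1i3 was lower in the AXB/BXA strains, whose means had a lowest value of 7.60, a median of 8.21 and a highest of 8.86, against 7.99, 8.63 and 9.44 in the classical strains. The difference was -0.51 (SE 0.098, limma adjusted p = 0.000588), where 4.65% of probe sets were called. It held with any replicate left out (-0.53 to -0.48), and strain means of the 2 groups overlapped. No gene was called for BXD, CXB or BXH against the classical strains, where 1.01%, 0.173% and 0.00444% of probe sets were. At an unadjusted p under 0.05 Cyp2b9 was lower in AXB/BXA (-0.30, 95% interval -0.59 to -0.0077) and BXH (-0.67, 95% interval -1.21 to -0.12), and Cyp2b13 in BXH (-1.42, 95% interval -2.59 to -0.25), all limma estimates.

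Across the 96 strain means all 10 pairs of genes were positively related. Cyp2b9 and Cyp2b13 had r = 0.88 (rho = 0.88), Cyp2b10 and Cyp2b9 r = 0.73 (rho = 0.75), and Cyp2b10 and Cyp2b13 r = 0.63 (rho = 0.72). The receptor Nr1i3 had r = 0.63 with Cyp2b9 (rho = 0.68), r = 0.60 with Cyp2b13 (rho = 0.69) and r = 0.56 with Cyp2b10 (rho = 0.57). Nr1i2 was less close, with r = 0.48 to Cyp2b10 (rho = 0.42), 0.42 to Cyp2b9 (rho = 0.46) and 0.34 to Cyp2b13 (rho = 0.42), and the 2 receptors had r = 0.51 (rho = 0.50). Permutation tests, two-sided, gave p = 1e-05 for r, the smallest value they can give, in 8 of the 10 pairs. The other 2 were Nr1i2 with Cyp2b9 (p = 4e-05) and Nr1i2 with Cyp2b13 (p = 0.00065), by permutation. The values adjusted over the 10 pairs ran from 1.25e-05 to 0.00065. Strains of a panel share progenitor alleles, so that the strain means are not fully independent. For Cyp2b10, 41 of the 96 strain means were below the median probe set, which limits what its r and rho can show.

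Without the 2 strains farthest from the median of the first gene of a pair, r was between 0.33 and 0.86. Strains extreme in the second gene stayed in, such as KK/HlJ in the pairs of Nr1i3 with Cyp2b9 and Cyp2b13. Within panels Cyp2b9 and Cyp2b13 kept r of 0.88 in BXD, 0.88 in AXB/BXA, 0.87 in CXB and 0.90 in the classical strains. Nr1i3 and Cyp2b9 had r = 0.79 in BXD (p = 1e-05), 0.68 in AXB/BXA (p = 0.00071), 0.80 in CXB (p = 0.0179) and 0.38 in the classical strains (p = 0.0455), by permutation. The relation of Nr1i2 with Cyp2b9 was 0.66 in BXD (p = 6e-05) and 0.51 in AXB/BXA (p = 0.0176), by permutation. It missed the threshold of 0.05 in CXB (0.30, p = 0.468) and the classical strains (0.19, p = 0.325), by permutation. Nr1i2 with Cyp2b10 missed it in CXB (0.36, p = 0.382) and the classical strains (0.35, p = 0.0634), by permutation. Nr1i2 with Cyp2b13 passed only in BXD (0.48, p = 0.00341), and missed the threshold in AXB/BXA (0.43, p = 0.0509), CXB (0.33, p = 0.423) and the classical strains (0.29, p = 0.131), by permutation. The relation of the 2 receptors passed in BXD (0.74, p = 1e-05) and the classical strains (0.44, p = 0.0172), by permutation. It missed the threshold in AXB/BXA (0.36, p = 0.111) and CXB (0.55, p = 0.155), by permutation. With 8 strains in CXB and 21 in AXB/BXA, a missed threshold does not show that a relation was absent. BXH, with 4 strains, was too small for a correlation. Within strains, a mouse above its strain mean in 1 gene also tended to be above it in the other. The deviations of a strain sum to 0, so that the mice are not independent points. Over 211 mice r of these deviations was 0.63 for Cyp2b9 with Cyp2b13, 0.57 for Cyp2b10 with Cyp2b9, between 0.41 and 0.51 for Nr1i3 with the 3 Cyp2b genes, and 0.19 for Nr1i2 with Cyp2b9.

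**Figure D4:**
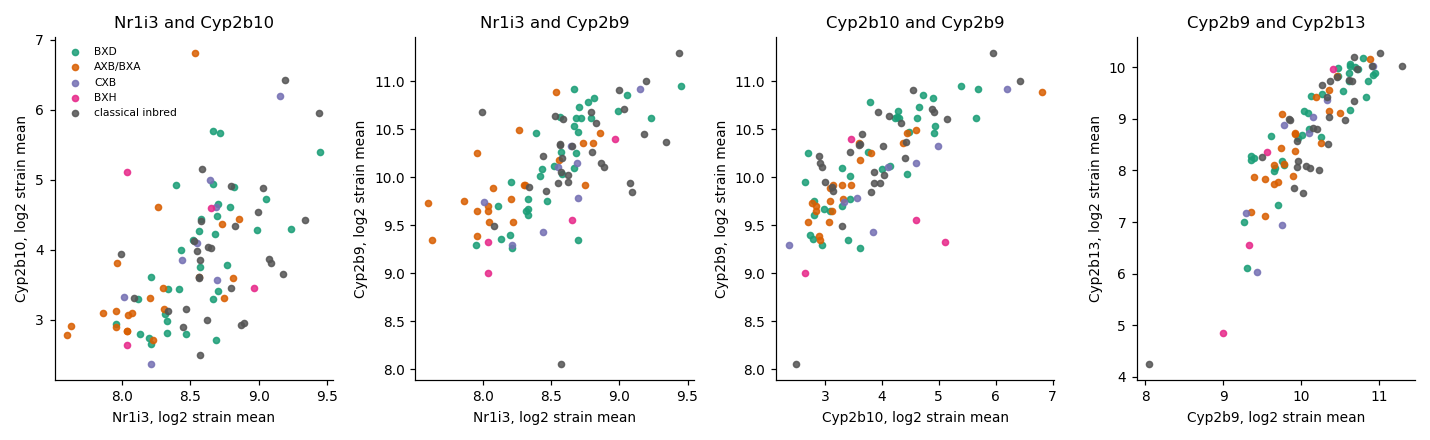
Strain means in log2 signal for 4 of the 10 pairs of genes, with 1 point per maternal strain coloured by panel. Cyp2b9 and Cyp2b13 form a narrow band (r = 0.88) that ends at KK/HlJ (8.05 and 4.24), and Nr1i3 with Cyp2b10 is broader (r = 0.56).

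Among 10469 other genes with a mean above the median probe set, those most like each of the 5 were found by biweight midcorrelation over the 96 strain means, the outlier-resistant measure the study used at strain level. Cyp2b13 was most like Rnf170, an endoplasmic reticulum ubiquitin ligase (0.95), then Dcxr (0.83), Lin7a (0.80), Hsd11b1 (0.80) and Macrod1 (0.79). Cyp2b9 was most like Rnf170 (0.86), Lin7a (0.85), Macrod1 (0.85), Aspdh (0.85) and the thioesterase gene Acot3 (0.84). Cyp2b10 was most like Pipox (0.78), Slc27a5, the bile acid CoA ligase (0.77), Mfsd4b1 (0.77), Dcxr (0.77) and Aadat (0.77). Nr1i3 was most like Pcp4l1 (0.78), Naa60 (0.77), Rab43 (0.77), Dpys, of pyrimidine breakdown (0.74), and Farp2 (0.74). Nr1i2 was most like Abhd15 (0.78), St3gal5 (0.77), its partner receptor gene Rxra (0.77), the glucose-6-phosphate transporter gene Slc37a4 (0.74) and Rhobtb1 (0.73).

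The genes most opposed to Cyp2b9 were Emp1 (-0.86), D17H6S56E-5 (-0.85) and the fatty acid elongase Elovl7 (-0.85), and Elovl7 (-0.80), S100a11 (-0.80) and Cstb (-0.79) were most opposed to Cyp2b10. Npdc1 (-0.84), Carmil1 (-0.83) and Fat1 (-0.82) were most opposed to Cyp2b13. For Nr1i3 they were Bok (-0.75) and the mitosis genes Pbk (-0.74) and Top2a (-0.73), and for Nr1i2 Mdfic (-0.72), Spdl1 (-0.72) and Sike1 (-0.70). These are descriptions over points that share arrays, panels and diet.

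Over all 17092 other genes, 7.01% had a biweight midcorrelation of 0.5 or more with Cyp2b9 and 11.3% one of -0.5 or less, and among the 10469 with a mean above the median probe set, as most genes of the lists had, 11.1% and 17.2% did. The same shares of these brighter genes were 6.17% and 9.04% with Nr1i3, 3.99% and 5.84% with Nr1i2, 8.30% and 13% with Cyp2b10, and 8.89% and 13.6% with Cyp2b13. The genes of the CAR and PXR target lists also differed between strains by limma's F-test, 16 of 16 target oxidases, 18 of 18 conjugation enzymes and 9 of 9 transporters, where 59.2% of all genes and 87.1% of the brighter ones did. Among target oxidases of CAR and PXR, 7 of 16 reached 0.5 with Cyp2b9, and 6 of 16 reached it with Nr1i3, where 3.82% of all genes did. Cyp2c37 (0.82 with Cyp2b9, 0.67 with Nr1i3), Cyp2c29 (0.78 and 0.66) and Ces2a (0.76 and 0.65) were close to both. Cyp3a11, the best known PXR target, was not, at 0.09 with Cyp2b9 and 0.00 with Nr1i2, and Nr1i2 reached 0.5 with 1 of the 16 oxidases, Ces2a (0.53), where 2.46% of all genes did. Conjugation enzymes were split: 5 of 18 reached 0.5 with Cyp2b9, such as Gstt1 (0.80) and Papss2, which makes the sulfate donor (0.74), and 6 were at -0.5 or less, such as Gstp1 (-0.77) and Ugdh, which makes the glucuronic acid donor (-0.75). The transporters were split as well, with Slc10a1, the bile acid importer, at 0.82 and the exporter gene Abcc4 at -0.67.

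Of 16 other Cyp2 genes, 9 reached 0.5 with Cyp2b9 and 0 were at -0.5 or less, with Cyp2d26 (0.82) and Cyp2d22 (0.80) the closest, and 8 of 16 reached it with Cyp2b10, where 5.24% of all genes did. Of 12 genes of heme synthesis and electron supply, the setting in which Por works, 3 reached 0.5 with Cyp2b9: Cyb5b (0.66), Cpox (0.62) and Urod (0.60). Of 8 other receptors, Ppara (0.71), the bile acid receptor gene Nr1h4 (0.63), Nr1h3 (0.58) and the glucocorticoid receptor gene Nr3c1 (0.54) reached it. Ahr was at -0.01. Of 13 receptor partners and coregulators, Rxra was at 0.77 with Nr1i2 and 0.55 with Nr1i3, and Gadd45b, a CAR coactivator and stress gene, was at -0.63 with Cyp2b9.

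Of the lists, female-biased genes had the highest median with Cyp2b9. Of 12 measured, 7 reached 0.5 with Cyp2b9 and 1 was at -0.5 or less, with a median of 0.68, while the median over all genes was 0.059. Acot3 (0.84), Slc22a26 (0.84) and Hao2 (0.77) led the list. Of 9 growth hormone signalling genes 4 reached 0.5, with the receptor gene Ghr at 0.77. Of 10 male-biased genes 1 reached it. Of 15 clock output genes, 4 reached 0.5 with each receptor, 5 with Cyp2b13, where 5.59% of all genes did, and 2 each with Cyp2b9 and Cyp2b10. Hlf was at 0.67 with Nr1i3, 0.64 with Nr1i2, 0.70 with Cyp2b9 and 0.75 with Cyp2b13, and Cry2 at 0.61, 0.59, 0.63 and 0.66.

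Markers of cholangiocytes and part of those of stellate cells ran the other way, while those of other non-parenchymal cells were mixed or positive. All 7 cholangiocyte markers measured had a biweight midcorrelation of -0.5 or less with Nr1i3 and with Cyp2b13, where 5.98% and 9.03% of all genes did, and 6 of 7 had with Cyp2b9 and with Cyp2b10 (8.42% of all genes for Cyp2b10). With Nr1i2 it was 3 of 7, where 3.65% of all genes did. Krt19 was at -0.65 with Nr1i3 and -0.71 with Cyp2b9. The list mean of these markers over strains ran from 3.74 in BXD55/RwwJ to 6.60 in BXA14/PgnJ. Of 10 stellate cell markers 6 were at -0.5 or less with Cyp2b9, with Lum (-0.81), Col1a1 (-0.79) and Col3a1 (-0.78) the most opposed. The others were Acta2 (-0.31), Des (-0.15), Reln (-0.007) and Lrat, which was positive (0.23). The stellate list mean ran from 6.80 in SWR/J to 8.08 in C57L/J. Endothelial markers were positive, with 3 of 9 at 0.5 or more with Cyp2b9, namely Cdh5 (0.62), Clec4g (0.61) and Kdr (0.57), and 0 at -0.5 or less. Of 12 macrophage and Kupffer cell markers, 5 were at -0.5 or less with Cyp2b9, with Cd14 (-0.76) and Itgax (-0.69) the most opposed, while the Kupffer cell marker Clec4f was at 0.57 and Vsig4 at 0.43. Hepatocyte markers had a median of 0.33 with Cyp2b9, and their list mean ran only from 12.2 to 12.6 over strains. Prom1 is in both the cholangiocyte and the female-biased list. No marker has a true 0 on this scale, and the part of these cells in the strain differences of the receptors and the Cyp2b genes was not tested.

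**Figure D5:**
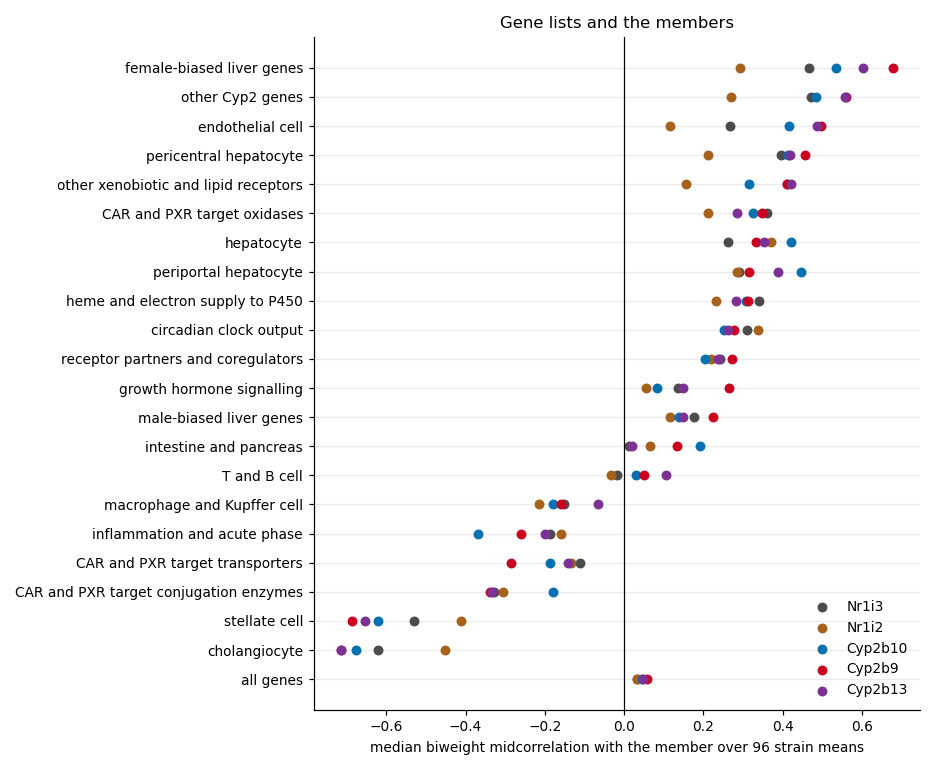
Median biweight midcorrelation over 96 strain means (horizontal axis) of the genes of each list with each of the 5 genes (colours), with all genes in the bottom row. Female-biased genes lie farthest right (0.68 with Cyp2b9) and cholangiocyte markers farthest left (-0.71 with Cyp2b9 and with Cyp2b13), with all genes at 0.059.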

How the data were processed

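The deposited table holds log2 signals that the authors computed by RMA (background correction, quantile normalization across arrays and a summary of the probes of each set). GCOS and RMA are the tools that the submitters' processing notes list, and the sources used here give neither versions nor batches. Control probe sets (104 of 45141) were left out. Symbols came from the platform annotation (28898 probe sets with 1 symbol, 551 with several, 15588 unnamed here). Array medians were 3.43 to 3.56. Where a strain differs in sequence at a probe, its signal can be low for that reason.

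Strain, progenitor and panel contrasts were limma 3.58.1 fits (R 4.3.3), two-sided, with Benjamini-Hochberg adjustment over all probe sets, and were tested on simulated data. Strain contrasts left 124 residual degrees of freedom, and the 9 strains with 1 mouse were assumed to vary like the others. The number of arrays limits the precision. Correlations used 100000 permutations, for 10 pairs because Por was not analysed. Biopython 1.88 aligned sequences. Named strains were the 3 highest and 3 lowest per gene, progenitors and up to 5 called strains. Named genes were the 5 most and 3 least alike and up to 4 a list. The members and gene lists were chosen with earlier results of these data known.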

Additional observations from a re-analysis of the deposited data

How the results depend on the processing

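No paired analysis was possible because replicate numbers only name mice of a strain and do not link mice of different strains. Leaving out a replicate removed every mouse of that number. Only 1 strain had 4 mice, so that leaving out replicate 4 changed little. Correlations between genes kept their direction and significance in 32 of 32 other settings and in 40 of 40 with a replicate left out. Panel contrasts kept their outcome in 144 of 144 values from other settings and in 95 of 96 with a replicate left out. The other settings included strain as a random block (its correlation estimated on every 20th probe set). A contrast that stayed uncalled with the same sign counted as kept, and so did a similar number of called probe sets. Only Nr1i3 in AXB/BXA was called with all mice, so that most of these values are uncalled results. The exception, not called in any setting, was Cyp2b10 in BXH against classical strains, at -0.51 to 0.48 with a replicate left out. With a replicate left out, 12846 to 21560 probe sets differed between strains over the array, against 21592, and 47 to 76 strain calls over the 5 genes, against 77. Leaving out each mouse of the named strains was chosen after seeing the data.

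With a replicate left out, called probe sets of the 5 genes numbered 5 to 8 among BXD strains, 5 to 8 among AXB/BXA and 3 to 8 among classical strains, against 8 each. With dim probe sets removed, 2 were called among CXB strains, against 1, and 0 among BXH strains, against 1. An intensity trend with a robust prior also gave 0 in BXH. Against C57BL/6J, 0 to 3 were called in A/J with a mouse left out (3 with all mice), 0 to 1 in BALB/cJ (1) and 0 to 1 in C3H/HeJ (3), and a fit of the progenitor strains alone gave 2 in BALB/cJ. Uncalled differences from C57BL/6J that changed sign with a mouse left out were Nr1i3 in A/J (-0.288 to 0.0484), Nr1i3 in BALB/cJ (-0.0286 to 0.140), Nr1i3 in DBA/2J (-0.0841 to 0.484), Cyp2b9 in DBA/2J (-0.11 to 0.25) and Cyp2b10 in DBA/2J (-0.75 to 0.45). Fewer mice per strain are part of these settings, and otherwise the cause was not tested. Low signal limits Cyp2b10: 96 of 220 mice were at or under their array's median.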
